A study of Trichoderma reesei with 8 samples.

Results

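The 41 genes described here are the peptidase, proteasome and ubiquitin genes of *Trichoderma reesei* QM6a, a wild-type filamentous fungus known for its secreted cellulases. They were taken by name: a gene was included where its annotation in the gene table of the study contained peptidase, protease, proteasome, proteinase or ubiquitin, with 1 such gene left out. The part of that table that could be read holds 1577 of the 9126 gene models, so the 41 genes are not all the genes of these kinds in the genome. By annotation they comprise 3 subunits of the 20S proteasome and 4 proteins of its 26S regulatory part. Another 7 are genes of ubiquitin transfer or removal, and 2 are genes of ubiquitin-like modification. The others are 5 processing peptidases, 5 endopeptidases, 8 exopeptidases and 7 other peptidases. The processing group holds peptidases that process newly made proteins and an M22 glycoprotease, whose annotation does not name this role. All 41 models carry the number of their scaffold in JGI assembly version 2.0 as the first number of the name, so that e_gw1.24.230.1 lies on scaffold 24. The genes are spread over 16 of the 72 scaffolds, and their median transcript length of 1290 bases is close to the 1299 bases of all genes.

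Transcript levels were measured in 8 libraries of mycelia grown in minimal medium at 28°C. Mycelia first grew from conidia for 48 h in 1% glucose (48 h glucose, 3 libraries), then were washed and kept for 24 h in 1% ground wheat straw (24 h straw, 3 libraries), and some of these straw cultures were sampled 5 h after glucose had been added to 1% (5 h glucose, 2 libraries). All 3 conditions use the same strain, the straw mycelia were grown on glucose beforehand, and the 5 h cultures still contain straw. The comparison of straw with 48 h glucose asks which genes differ after the change of carbon source. That of 5 h glucose with straw asks which differ after glucose was added. Culture age, washing and fresh medium changed together with the move to straw, and the 5 h cultures were also older. Effects of carbon source and of these steps cannot be told apart in this design.

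Cells break proteins down by separate routes. Proteins marked with chains of ubiquitin, which are attached by a relay of E1, E2 and E3 enzymes, are unfolded and cut inside the proteasome, a barrel of alpha and beta subunits capped by a regulatory particle. Other peptidases trim proteins on their way through the secretory pathway, act in the vacuole and mitochondria, or are secreted by filamentous fungi to digest protein outside the cell.

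The libraries held between 798550 and 2997433 reads on genes, with the 5 h glucose libraries the smallest. A gene of a CE5 esterase, used to check the labels, had 1252, 2972 and 1460 reads in the straw libraries and at most 1 read in each of the other 5. Straw libraries 1 and 3 were much alike (median absolute log2 ratio of 0.09 over the 30 genes here with a mean of at least 20 reads), against 0.19 for the other pairs from straw, and the pair from 5 h glucose differed most (0.42). A level is given below as TMM-scaled RPKM, the RPKM recomputed from the counts with the TMM-scaled number of reads on genes in place of the total of mapped reads. Differences were tested by the quasi-likelihood method of edgeR on the counts, with p values adjusted (Benjamini-Hochberg) over the 7211 genes that passed the filter, and a gene is said to rise or fall only at an adjusted p below 0.05. These changes are relative to the reads on genes. If the totals used for the deposited RPKM are the only scaling, the log2 fold changes of all genes shift by a median of 0.80 for straw over 48 h glucose, -1.27 for 5 h glucose over straw and -0.47 for 5 h over 48 h glucose, and the text gives the direction under both scalings where this turns it. Of every 100 reads in these totals, 12.2, 11.5 and 10.1 lay on genes at 48 h glucose. On straw these values were 18.4, 20.2 and 18.2, and at 5 h glucose 10.2 and 7.38. Neither scaling measures the number of cells or the RNA per cell, and fewer cells and less RNA per cell cannot be told apart in such samples.

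The 41 genes differed in level by several orders of magnitude. The peptidase Ste24p (e_gw1.12.468.1) had the highest mean, and the proteasome subunit Pre3, leucine aminopeptidase 1, the subtilisin-like gene e_gw1.13.309.1 and the ubiquitin-conjugating enzyme e_gw1.16.244.1 completed the 5 with the highest mean level. Of the 41 genes, 32 had reads in all 8 libraries and 30 had a mean of at least 20 reads. The 35 genes that could be tested had a median level of 53.0 in 48 h glucose libraries, 67.3 in straw libraries and 54.9 in those from 5 h glucose, where all genes tested had medians of 32.6, 36.2 and 32.4.

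The other 6 genes were not tested. A serine carboxypeptidase of family S10 (e_gw1.18.60.1), a serine peptidase of family S28 (e_gw1.19.86.1) and a dipeptidyl peptidase 5 gene (e_gw1.2.870.1) each had 1 read in all libraries together. A gene like aspergillopepsin, a secreted acid protease of *Aspergillus* (e_gw1.29.235.1), had 2, 2 and 1 reads on straw and none at 48 h or 5 h glucose. Another dipeptidyl peptidase 5 gene (e_gw1.12.104.1) had at most 3 reads in every library. The sixth, a metallopeptidase gene (e_gw1.16.308.1), had 0, 1 and 8 reads on straw and none elsewhere, so that 1 straw library held nearly all of its reads. A library with 3 reads or fewer is taken as at the detection limit, and 5 of the 41 genes were at that limit in every library. By this measure 8 genes were at the limit throughout 48 h glucose, 5 throughout the straw libraries and 10 throughout 5 h glucose, which also had the fewest reads.

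**Figure D1:**
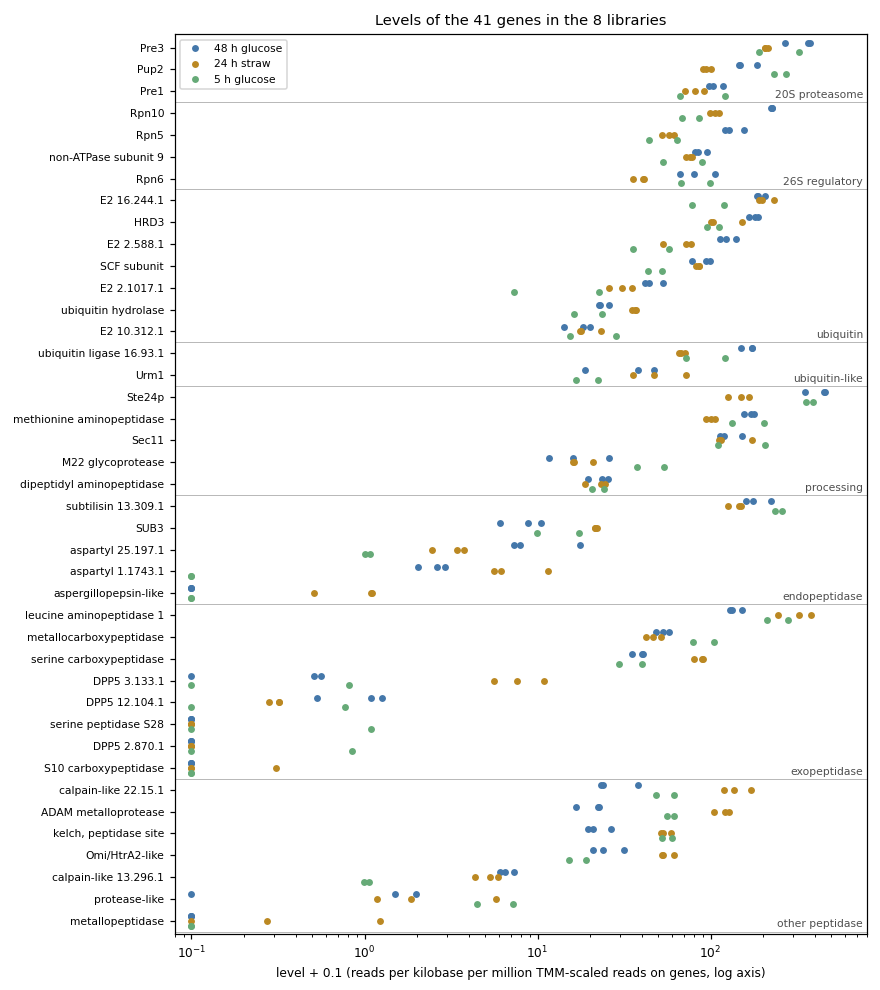
Levels of the 41 genes in each of the 8 libraries, as TMM-scaled RPKM plus 0.1 on a log axis, grouped by role, with colours for the 3 conditions from 48 h glucose through 24 h straw to 5 h glucose. Proteasome genes run from 35.7 to 374, exopeptidases from 0 to 380 and other peptidases from 0 to 171.

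On straw relative to 48 h glucose, 5 of the 7 proteasome genes fell, and 9 of the 19 tested peptidases outside the proteasome and ubiquitin roles rose, with the reads on genes as the scale. Of the 35 genes tested, 10 rose and 13 fell, where 30.6% of all genes tested rose and 28.2% fell. The median log2 fold change was -0.09 for these genes and 0.05 for all genes tested. None of the proteasome genes rose, 4 of the 19 other peptidases fell, and the ubiquitin genes had calls in both directions. Dipeptidyl peptidase 5 (e_gw1.3.133.1) and the aspartyl protease e_gw1.1.1743.1, among the 9, passed the filter on low counts only through straw. The aspartyl protease e_gw1.25.197.1, among the 4, passed it only through 48 h glucose. The filter itself thus favoured these calls in the direction found. Differences between roles were not tested. Most of the falls were lost with the other scaling, while the rises were kept and further genes joined them. With the library totals used for the RPKM, 20 of the 35 genes rose and 2 fell, where 59.5% of all genes rose and 10.4% fell. All 10 of the genes that rose with TMM also rose there, and of the 13 that fell only Ste24p and the ligase gene e_gw1.16.93.1 still did. No proteasome gene fell there and 1 rose.

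**Figure D2:**
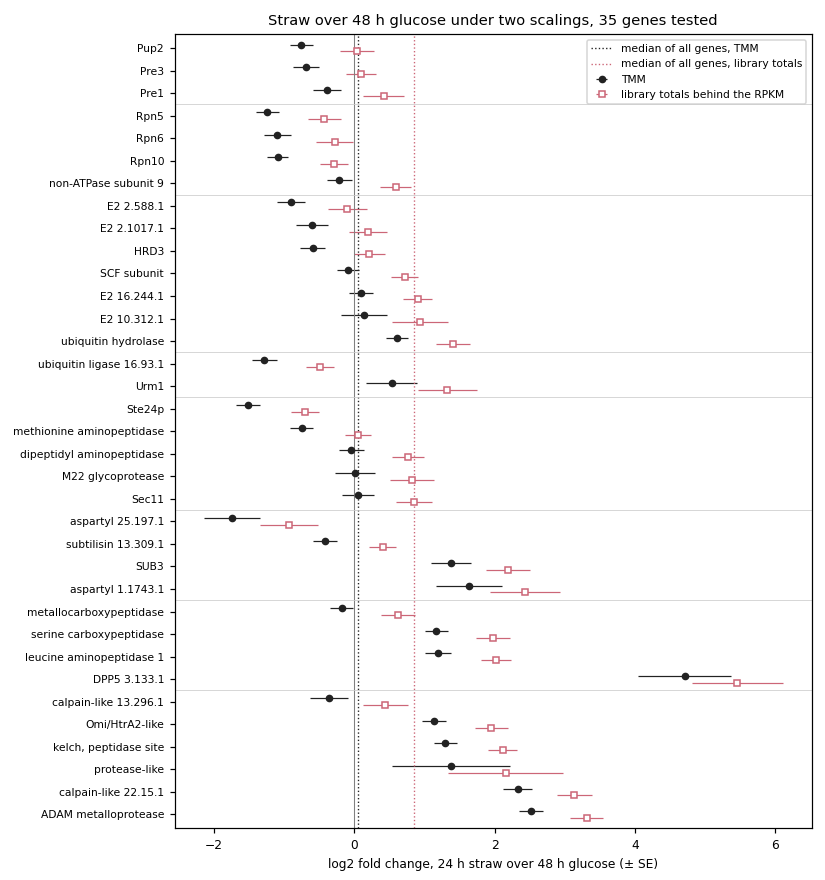
Log2 fold change of straw over 48 h glucose with its standard error for the 35 genes tested, ordered by role, scaled by TMM (filled) or by the library totals of the RPKM (open); dotted lines mark the medians of all genes, 0.05 and 0.85. The 7 proteasome genes lie left of the median of all genes under either scaling, and Pup2, Pre3, Pre1 and the non-ATPase subunit 9 lie right of 0 with the library totals.

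The regulatory particle of the proteasome held the larger falls. Rpn5, a subunit of its lid (e_gw1.24.230.1), had levels of 61.7, 52.5 and 57.8 on straw, against 128, 121 and 157 at 48 h glucose. All 3 straw libraries were below all 3 libraries from 48 h glucose, a 2.36-fold lower level (log2 fold change -1.24 ± 0.17 SE, adjusted p = 4.53e-06). Rpn6, another lid subunit (e_gw1.1.564.1), had 40.3, 35.7 and 41.3 on straw, against 80.4, 66.1 and 106 at 48 h glucose (log2 fold change -1.10 ± 0.20, adjusted p = 9.37e-05). Rpn10, which binds ubiquitin chains on the substrate (e_gw1.16.202.1), had 99.5, 112 and 106 on straw and 224, 226 and 225 at 48 h glucose, with little spread within either condition (log2 fold change -1.09 ± 0.15, adjusted p = 4.82e-06). These 3 genes stayed lower with the library totals, at -0.43, -0.28 and -0.28, but no longer passed the test. The non-ATPase regulatory subunit 9 gene (e_gw1.3.490.1), whose mammalian namesake helps to assemble the regulatory particle, had 77.7, 76.3 and 71.9 on straw and 81.2, 95.7 and 84.7 at 48 h glucose. It did not pass the test with TMM (-0.21 ± 0.18, adjusted p = 0.334), and with the library totals it was the proteasome gene that rose (0.59, adjusted p = 0.0241).

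In the core particle, 2 of the 3 genes fell. Pup2, a subunit of the outer alpha ring (e_gw1.2.519.1), had 94.4, 89.8 and 101 on straw and 185, 148 and 147 at 48 h glucose (log2 fold change -0.76 ± 0.16, adjusted p = 0.000582, or 0.04 with the library totals). The straw libraries were again all below those of 48 h glucose. Pre3, a beta subunit that in yeast carries the caspase-like activity (e_gw1.19.176.1), had 215, 206 and 205 on straw and 374, 365 and 270 at 48 h glucose (-0.69 ± 0.19, adjusted p = 0.00368, or 0.10 with the library totals). Pre1, another beta subunit (e_gw1.1.1013.1), had 81.5, 91.7 and 71.0 on straw against 118, 97.4 and 103 at 48 h glucose, which did not overlap but did not pass the test (-0.39 ± 0.20, adjusted p = 0.104, or 0.42 with the library totals). The median log2 fold change of the 7 genes was -0.76 with TMM, 0.80 below the median of all genes, and 0.04 with the library totals, 0.81 below it. Leaving out any 1 library left 5 of the 7 genes lower, as did summing straw libraries 1 and 3. The share of the summed RPKM of a library held by the 7 genes, which does not depend on library totals, was 0.0978% ± 0.00188 on straw and 0.144% ± 0.00536 at 48 h glucose (SD, n = 3 each). Such a share is relative to the other genes of the library, so it also changes when their reads change.

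**Figure D3:**
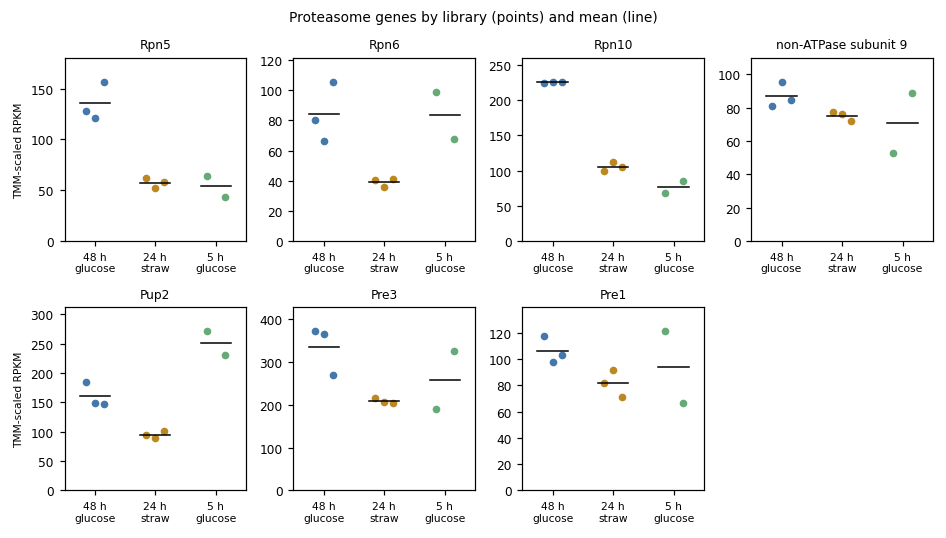
Level of the 7 proteasome genes in each library (TMM-scaled RPKM, points, with the mean as a line) in the 3 conditions, in the order of culture. The straw points lie below all those of 48 h glucose for every gene, while the 5 h glucose points lie above straw for Pup2 and Rpn6 only; with the library totals in place of TMM, Pup2, Pre3, Pre1 and the non-ATPase subunit 9 lie higher for straw than for 48 h glucose, and Rpn6 lies lower for 5 h glucose than for straw.

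The 7 ubiquitin genes did not move one way: 1 rose, 3 fell and 3 did not pass the test on straw. A different count, 4 higher (the hydrolase, the E2 genes e_gw1.16.244.1 and e_gw1.10.312.1 and the cullin) and none lower, came with the library totals. The ubiquitin carboxyl-terminal hydrolase gene e_gw1.20.169.1, whose class removes ubiquitin from proteins, had 37.0, 36.6 and 34.9 on straw and 25.7, 22.6 and 22.8 at 48 h glucose (log2 fold change 0.61 ± 0.16, adjusted p = 0.00337). It was the only ubiquitin gene to rise with TMM. Of the 4 genes annotated as ubiquitin-conjugating (E2) enzymes, e_gw1.2.588.1 had 77.2, 71.7 and 53.1 on straw and 122, 140 and 113 at 48 h glucose (-0.90 ± 0.20, adjusted p = 0.000737). A second E2 gene, e_gw1.2.1017.1, fell as well (-0.60 ± 0.23, adjusted p = 0.0314, or 0.19 with the library totals), but not with DESeq2 (adjusted p = 0.0548) or with straw libraries 1 and 3 summed (0.0711), nor without replicate 1 of 48 h glucose (0.142), replicate 1 of straw (0.138) or replicate 2 of straw (0.0622). The other E2 genes, e_gw1.16.244.1 (0.10 ± 0.17) and e_gw1.10.312.1 (0.14 ± 0.33), did not pass the test.

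HRD3 (e_gw1.13.301.1) belongs to a ubiquitin ligase of the endoplasmic reticulum that marks misfolded proteins for destruction. It had 103, 151 and 101 on straw, against 188, 180 and 167 at 48 h glucose (-0.59 ± 0.18, adjusted p = 0.00798, or 0.21 with the library totals). The call was lost without replicate 1 (adjusted p = 0.0621) or replicate 3 of straw (0.069) and when these 2 libraries were summed (0.0619). The gene of an SCF ligase subunit, annotated as a cullin (e_gw1.2.780.1), had overlapping levels in the 2 conditions (-0.09 ± 0.15, adjusted p = 0.624, or 0.72 with the library totals, adjusted p = 0.00295). Of the genes of ubiquitin-like modification, the one annotated as a ubiquitin-protein ligase and molybdopterin-converting factor (e_gw1.16.93.1) had 65.8, 67.6 and 71.2 on straw and 174, 174 and 149 at 48 h glucose, a clear separation (-1.28 ± 0.17, adjusted p = 4.42e-06, or -0.49 with the library totals, adjusted p = 0.0350). The gene of the ubiquitin-related modifier Urm1 (e_gw1.1.2114.1) did not pass the test (0.53 ± 0.36).

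Among the processing peptidases, 2 of 5 fell and none rose, while with the library totals 1 fell and 3 rose. The gene called Ste24p here, annotated as a peptidase of family M48, is named after a membrane zinc peptidase that in yeast processes the farnesylated a-factor mating pheromone. Its level was 166, 127 and 149 on straw and 351, 461 and 452 at 48 h glucose, 2.86-fold lower (log2 fold change -1.51 ± 0.17, adjusted p = 4.59e-07, or -0.70 with the library totals, adjusted p = 0.00405). Methionine aminopeptidase, which removes the first methionine of new proteins (e_gw1.10.560.1), had 94.0, 106 and 100 on straw, against 156, 172 and 178 at 48 h glucose (-0.75 ± 0.17, adjusted p = 0.000819, or 0.06 with the library totals). The remaining genes were close to the median of all genes: Sec11, the catalytic subunit of signal peptidase (e_gw1.1.2071.1, 0.05 ± 0.22), the dipeptidyl aminopeptidase of alpha-factor processing (e_gw1.19.218.1, -0.04 ± 0.18, or 0.77 with the library totals) and the M22 family glycoprotease (e_gw1.28.237.1, 0.01 ± 0.29, or -0.01 with DESeq2). None of these 3 passed the test with TMM, and they are the 3 that rose with the library totals.

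The rises on straw lay among the remaining peptidases, and in each of the 9 genes that rose all straw libraries were above all libraries from 48 h glucose. The zinc-dependent metalloprotease of the fungal ADAM subgroup (e_gw1.1.173.1), a family of membrane-anchored proteases that shed other proteins from the cell surface in animals, had 121, 105 and 128 on straw and 22.2, 22.5 and 16.7 at 48 h glucose. That is a 5.73-fold higher level (log2 fold change 2.52 ± 0.17, adjusted p = 5.66e-10). A gene annotated only as like the calpains, which are calcium-dependent cysteine proteases of the cytosol (e_gw1.22.15.1), had 137, 171 and 120 on straw and 23.7, 37.9 and 23.3 at 48 h glucose, 5.03-fold higher (2.33 ± 0.21, adjusted p = 1.65e-08). Its namesake, the calpain-like gene e_gw1.13.296.1, did not follow it, with a log2 fold change of -0.36 ± 0.27 (adjusted p = 0.263, or 0.44 with the library totals). A gene of kelch repeats with a peptidase site (e_gw1.13.274.1) had 53.2, 58.7 and 51.5 on straw and 19.4, 20.7 and 26.6 at 48 h glucose (2.45-fold higher, adjusted p = 2.09e-06). The gene similar to the Omi/HtrA2 serine proteases, known in mammals from mitochondria (e_gw1.2.703.1), had 52.8, 61.2 and 52.4 on straw and 23.7, 20.8 and 31.5 at 48 h glucose (1.13 ± 0.18, adjusted p = 2.03e-05). A gene annotated only as protease-like (e_gw1.28.93.1) had 16, 3 and 6 reads on straw and 0, 3 and 2 at 48 h glucose and did not pass the test.

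Exopeptidases, which cut amino acids or dipeptides from the ends of a protein, rose in 3 of 4 genes tested. Of these, dipeptidyl peptidase 5 passed the filter only through straw. Leucine aminopeptidase 1 (e_gw1.3.290.1) was the most abundant of the 41 genes on straw, with 325, 380 and 246, against 133, 130 and 152 at 48 h glucose (1.20 ± 0.19, adjusted p = 1.95e-05). A serine carboxypeptidase (e_gw1.29.29.1) had 88.8, 90.7 and 79.6 on straw and 34.8, 40.7 and 40.2 at 48 h glucose (1.16 ± 0.16, adjusted p = 6.46e-06). A gene of dipeptidyl peptidase 5 (e_gw1.3.133.1), which was outside the rule for genes described in full because of its low count, had 24, 32 and 57 reads on straw and 0, 1 and 1 at 48 h glucose (adjusted p = 6.67e-06). The ratio of the summed reads, scaled by depth, was 30.6 with a 95% counting interval of 8.27 to 255. The metallocarboxypeptidase gene e_gw1.18.75.1 did not pass the test (-0.18 ± 0.17, or 0.62 with the library totals, adjusted p = 0.0301).

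The 4 endopeptidase genes tested were split. The subtilisin-like gene SUB3 (e_gw1.14.438.1), of the family of secreted serine proteases, had 65, 64 and 81 reads on straw, from libraries of larger depth, and 12, 15 and 16 reads at 48 h glucose, a 2.61-fold higher level (1.38 ± 0.29, adjusted p = 0.000394). The other subtilisin-like gene, e_gw1.13.309.1, had 150, 127 and 145 on straw and 161, 177 and 224 at 48 h glucose. Its fall was small (-0.41 ± 0.17, adjusted p = 0.0433, or 0.40 with the library totals) and was lost without any 1 of the 3 straw libraries or replicates 2 or 3 of 48 h glucose (adjusted p up to 0.202), with straw libraries 1 and 3 summed (0.0895) and with no filter on low counts (0.0510). The 2 aspartyl protease genes tested moved in opposite directions at low counts. Each passed the filter only through the condition in which it was higher. One (e_gw1.1.1743.1) had 19, 35 and 21 reads on straw and 4, 5 and 4 at 48 h glucose (1.63 ± 0.47, adjusted p = 0.00661), and the other (e_gw1.25.197.1) had 8, 11 and 15 reads on straw and 16, 15 and 30 at 48 h glucose, from libraries of smaller depth (-1.74 ± 0.40, adjusted p = 0.00111, or -0.93 with the library totals, adjusted p = 0.0545).

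**Figure D4:**
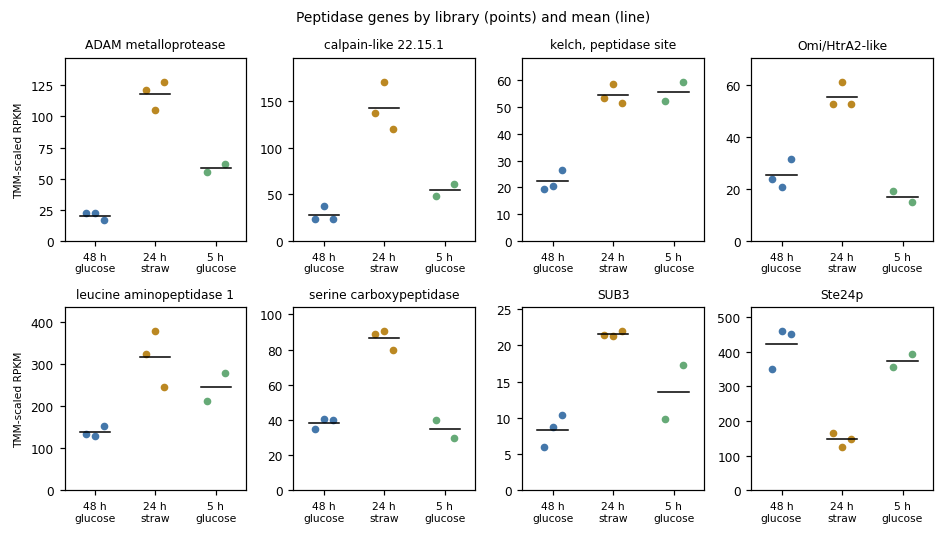
Level of 8 peptidase genes in each library (TMM-scaled RPKM, points, with the mean as a line) in the 3 conditions, in the order of culture. The first 7 genes have all straw points above all those of 48 h glucose, and Ste24p has all of them below.

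Between 5 h glucose and straw, 6 of the 9 peptidase genes that had risen on straw fell after glucose had been added. They were the ADAM metalloprotease, the calpain-like gene e_gw1.22.15.1, the Omi/HtrA2-like gene, the serine carboxypeptidase, dipeptidyl peptidase 5 and the aspartyl protease e_gw1.1.1743.1. The last 2 passed the filter only through straw. Of the 35 genes tested, 8 rose and 12 fell, where 28.5% of all genes tested rose and 30.0% fell, and the median log2 fold change was -0.19 for these genes and -0.04 for all. With the library totals, none of the 35 rose and 27 fell, where 6.14% of all genes rose and 67.3% fell. The 12 genes that fell with TMM were all among these 27. The comparison shares the straw libraries with the previous one, so the values of the comparisons are not independent, and the 5 h condition has only 2 libraries. The 9 genes were picked as high in those same straw libraries. The share of all genes risen on straw that then fell was not calculated, so 6 of 9 is not shown to be particular to peptidases.

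The 4 other peptidases that had risen on straw did not all fall. The calpain-like gene e_gw1.22.15.1 had 48.6 and 61.2 at 5 h glucose, against 137, 171 and 120 on straw (log2 fold change -1.37 ± 0.23, adjusted p = 7.08e-05). The ADAM metalloprotease had 55.7 and 61.7 at 5 h glucose and 121, 105 and 128 on straw (-1.01 ± 0.19, adjusted p = 0.000196). The Omi/HtrA2-like gene had 19.1 and 15.0 at 5 h glucose and 52.8, 61.2 and 52.4 on straw, the largest fall of the 3 (-1.70 ± 0.23, adjusted p = 5.02e-06). The kelch repeat gene, in contrast, had 52.0 and 59.4 at 5 h glucose, within the straw range of 51.5 to 58.7 at its lower end and just over it at the upper (0.03 ± 0.18, adjusted p = 0.886, or -1.24 with the library totals, adjusted p = 8.1e-05). The calpain-like gene e_gw1.13.296.1 had only 2 reads in each library from 5 h glucose, against 29, 39 and 43 reads on straw (adjusted p = 0.00118). Scaled by depth, straw was 5.44 times as high, with a 95% counting interval of 2.07 to 20.3.

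Among the exopeptidases, the serine carboxypeptidase had 40.2 and 29.6 at 5 h glucose and 88.8, 90.7 and 79.6 on straw (-1.31 ± 0.20, adjusted p = 2.74e-05). Dipeptidyl peptidase 5 (e_gw1.3.133.1) had 0 and 1 reads at 5 h glucose against 24, 32 and 57 on straw (adjusted p = 0.000601), a ratio of straw to 5 h glucose of 22.1 with a counting interval of 3.89 to 882. Leucine aminopeptidase 1 kept an overlapping level, with 212 and 280 at 5 h glucose and 325, 380 and 246 on straw (-0.36 ± 0.21, adjusted p = 0.140). The metallocarboxypeptidase moved the other way, with 104 and 79.1 at 5 h glucose and 51.9, 42.1 and 46.1 on straw (0.97 ± 0.19, adjusted p = 0.000292, or -0.25 with the library totals). Of the endopeptidases, the aspartyl protease e_gw1.1.1743.1 had no read at 5 h glucose and 19, 35 and 21 reads on straw, at least 2.50-fold lower at 5 h glucose if 3 reads per library are taken as the limit (adjusted p = 0.000822). The protease-like gene e_gw1.28.93.1 had 6 and 4 reads at 5 h glucose and 16, 3 and 6 on straw and did not pass the test (1.01 ± 0.78, or -0.25 with the library totals). SUB3 had 9 and 17 reads at 5 h glucose and did not pass the test (-0.66 ± 0.34, adjusted p = 0.107). The subtilisin-like gene e_gw1.13.309.1 had 234 and 260 at 5 h glucose and 150, 127 and 145 on straw (0.81 ± 0.19, adjusted p = 0.0012, or -0.44 with the library totals). The aspartyl protease gene e_gw1.25.197.1 had 1 read in each library from 5 h glucose and did not pass the test (adjusted p = 0.144).

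Of the 7 proteasome genes, 2 rose at 5 h glucose relative to straw and none fell, whereas with the library totals none rose and 5 fell, namely Rpn5, Rpn10, Pre1, Pre3 and the non-ATPase subunit 9. Pup2 had 272 and 231 at 5 h glucose, against 94.4, 89.8 and 101 on straw (log2 fold change 1.40 ± 0.18, adjusted p = 3.51e-06, or 0.17 with the library totals, adjusted p = 0.574). Rpn6 had 98.8 and 67.7 at 5 h glucose and 40.3, 35.7 and 41.3 on straw (1.08 ± 0.23, adjusted p = 0.000564, or -0.13 with the library totals). The other lid subunit, Rpn5, which had fallen with Rpn6 on straw, had 63.8 and 43.9 at 5 h glucose and 61.7, 52.5 and 57.8 on straw, with the ranges overlapping (-0.09 ± 0.21, adjusted p = 0.722). Rpn10 had 68.6 and 85.5 at 5 h glucose and 99.5, 112 and 106 on straw, just short of the threshold (-0.45 ± 0.19, adjusted p = 0.0524). It passed with no filter on low counts (0.0343) and without replicate 2 of 5 h glucose (-0.68, adjusted p = 0.0218). Pre3 (0.31 ± 0.22, or -1.01 with the library totals), Pre1 (0.20 ± 0.25, or -1.01 with the library totals) and the non-ATPase subunit 9 (-0.08 ± 0.23) did not pass the test with TMM. For Pre3 and Pre1 the 2 libraries from 5 h glucose stood far apart, at 191 and 325 and at 121 and 66.2, in opposite order, and without replicate 1 of 5 h glucose Pre3 passed as higher (0.60, adjusted p = 0.0289).

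Of the 7 ubiquitin genes, 4 fell and none rose, and with the library totals 6 fell. The E2 gene e_gw1.16.244.1 had 77.6 and 119 at 5 h glucose and 191, 232 and 197 on straw (-1.07 ± 0.22, adjusted p = 0.000498). The ubiquitin hydrolase had 23.5 and 16.2 at 5 h glucose and 37.0, 36.6 and 34.9 on straw (-0.87 ± 0.19, adjusted p = 0.000909). The SCF ligase subunit had 75 and 97 reads at 5 h glucose and 491, 480 and 571 on straw, from libraries of larger depth (-0.82 ± 0.19, adjusted p = 0.00124). The cullin of an SCF ligase is the scaffold that brings substrate and E2 enzyme together. The E2 gene e_gw1.2.1017.1 had 7.23 and 22.4 at 5 h glucose and 25.8, 30.6 and 34.9 on straw (-1.02 ± 0.36, adjusted p = 0.0208). Its value rested on the 2 libraries from 5 h glucose, and was -0.49 (adjusted p = 0.270) without replicate 1 and -2.13 (adjusted p = 0.00176) without replicate 2 of that condition, while the call was also lost without replicate 3 of straw (0.0607). The remaining 3, HRD3 (-0.19 ± 0.21), the E2 gene e_gw1.2.588.1 (-0.54 ± 0.29) and the E2 gene e_gw1.10.312.1 (0.15 ± 0.42, or -1.10 with the library totals), did not pass the test.

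The ubiquitin-like genes gave calls close to the threshold. Urm1 had 5 and 4 reads at 5 h glucose and 35, 53 and 32 on straw (-1.39 ± 0.56, adjusted p = 0.0396). This call was lost with DESeq2 (0.0672), in the fit of the 2 conditions alone (0.0504), and without either library from 5 h glucose, replicate 2 of straw or replicate 2 of 48 h glucose (adjusted p of 0.0526 to 0.172). The ligase gene e_gw1.16.93.1 had 72.5 and 121 at 5 h glucose and 65.8, 67.6 and 71.2 on straw (0.51 ± 0.20, adjusted p = 0.0419, or -0.81 with the library totals). Without replicate 2 of 5 h glucose it was 0.03 (adjusted p = 0.926), without replicate 1 it was 0.78 (adjusted p = 0.00334), and the call was lost in 5 of the 6 fits that left out another library (up to 0.108), in DESeq2 (0.0506), in the fit of the 2 conditions alone (0.0632), with no filter (0.0971), with the replicate number as a block (0.0778) and with straw libraries 1 and 3 summed (0.0865).

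Of the 5 processing peptidases, 3 rose and none fell, whereas with the library totals none rose and methionine aminopeptidase, Sec11 and the dipeptidyl aminopeptidase fell. Ste24p had 355 and 393 at 5 h glucose, against 166, 127 and 149 on straw (1.35 ± 0.19, adjusted p = 9.02e-06, or 0.09 with the library totals, adjusted p = 0.730). The M22 glycoprotease, of a family that in yeast acts in tRNA modification, had 37.4 and 53.8 at 5 h glucose and 16.0, 16.2 and 20.7 on straw (1.36 ± 0.31, adjusted p = 0.00106, or 0.07 with the library totals). Methionine aminopeptidase had 133 and 205 at 5 h glucose and 94.0, 106 and 100 on straw (0.76 ± 0.19, adjusted p = 0.00257, or -0.56 with the library totals), and without replicate 2 of 5 h glucose it no longer passed (0.35, adjusted p = 0.149). All 3 had both libraries of 5 h glucose above every straw library. Sec11 (0.26 ± 0.26, or -1.08 with the library totals) and the dipeptidyl aminopeptidase (0.01 ± 0.22, or -1.27 with the library totals) did not pass the test with TMM.

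**Figure D5:**
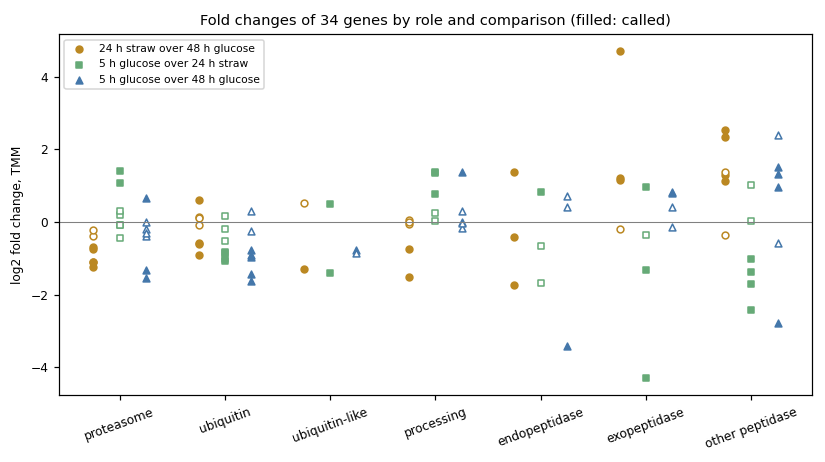
Log2 fold changes with TMM of 34 of the 35 genes tested, by role, in the 3 comparisons (filled where the adjusted p was below 0.05); the aspartyl protease e_gw1.1.1743.1, with no read at 5 h glucose, is left out. The filled points of the proteasome lie below 0 for straw over 48 h glucose and above 0 for 5 h glucose over straw, a direction that turns for Pup2 and Pre3 in straw over 48 h glucose and for Rpn6 in 5 h glucose over straw when library totals replace TMM.

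The third comparison sets 5 h glucose beside 48 h glucose, the conditions with glucose in the medium. Of the 35 genes, 7 rose and 11 fell, where 25.7% of all genes tested rose and 23.2% fell. The median log2 fold change was -0.17, against 0.06 for all genes. With the library totals 3 rose and 15 fell, where 11.7% of all genes rose and 33.5% fell, and all 11 of the genes that fell with TMM were among these 15. The 3 were the ADAM metalloprotease, the kelch repeat gene and the M22 glycoprotease.

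The genes above 48 h glucose after 5 h were peptidase genes and the proteasome gene Pup2. Among them, the M22 glycoprotease, the metallocarboxypeptidase and Pup2 had not risen on straw with TMM. The ADAM metalloprotease had 55.7 and 61.7 at 5 h glucose, against 22.2, 22.5 and 16.7 at 48 h glucose (1.51 ± 0.20, adjusted p = 1.07e-05). The kelch repeat gene had 52.0 and 59.4 at 5 h glucose and 19.4, 20.7 and 26.6 at 48 h glucose (1.33 ± 0.19, adjusted p = 1.69e-05). These kept their calls whichever library was left out. The M22 glycoprotease (1.37 ± 0.33, adjusted p = 0.00212), the calpain-like gene e_gw1.22.15.1 (0.96 ± 0.25, adjusted p = 0.00362) and leucine aminopeptidase 1 (0.83 ± 0.21, adjusted p = 0.00314) rose, but not without replicate 2 of 5 h glucose (adjusted p = 0.0551, 0.0640 and 0.0595 in this order). The metallocarboxypeptidase (0.79 ± 0.19, adjusted p = 0.00281) and Pup2 (0.65 ± 0.18, adjusted p = 0.00718) rose, but not without replicate 1 of 5 h glucose (0.0612 and 0.0785). The serine carboxypeptidase, which had risen on straw, had overlapping levels in the 2 glucose conditions, at 40.2 and 29.6 for 5 h and 34.8, 40.7 and 40.2 for 48 h (-0.15 ± 0.21, adjusted p = 0.593), as had Ste24p, at 355 and 393 for 5 h and 351, 461 and 452 for 48 h (-0.17 ± 0.19, adjusted p = 0.488).

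Of the 11 genes that fell, 5 were ubiquitin genes, and the same number of ubiquitin genes fell with the library totals. The E2 gene e_gw1.2.588.1 had 57.4 and 35.6 at 5 h glucose and 122, 140 and 113 at 48 h glucose (-1.44 ± 0.29, adjusted p = 0.000466). For e_gw1.2.1017.1 the levels were 7.23 and 22.4 at 5 h glucose and 52.9, 41.9 and 44.0 at 48 h glucose (-1.62 ± 0.35, adjusted p = 0.00104, or -2.72 without replicate 2 of 5 h glucose). E2 gene e_gw1.16.244.1 (-0.97 ± 0.23), the SCF subunit (-0.91 ± 0.19) and HRD3 (-0.78 ± 0.21) fell by similar amounts, with adjusted p values of 0.00181, 0.000767 and 0.00504 in this order. The ligase gene e_gw1.16.93.1 fell too (-0.78 ± 0.21, adjusted p = 0.00476), with a value of -0.49 (adjusted p = 0.0625) without replicate 1 and -1.25 (adjusted p = 0.000249) without replicate 2 of 5 h glucose.

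In the proteasome, Rpn5 and Rpn10 were the genes that fell with TMM, and 4 of the 7 fell with the library totals. Rpn10 had 68.6 and 85.5 at 5 h glucose, against 224, 226 and 225 at 48 h glucose (-1.54 ± 0.19, adjusted p = 5.3e-06). Rpn5 had 63.8 and 43.9 at 5 h glucose and 128, 121 and 157 at 48 h glucose (-1.33 ± 0.21, adjusted p = 6.37e-05). Rpn6, in contrast, overlapped with 48 h glucose, at 98.8 and 67.7 for 5 h and 80.4, 66.1 and 106 for 48 h (-0.01 ± 0.23, adjusted p = 0.971). The 3 lid or ubiquitin-binding genes were all below 48 h glucose on straw, and 2 of them were so at 5 h glucose. Pre1, Pre3 and the non-ATPase subunit 9 did not pass the test, with log2 fold changes of -0.19, -0.38 and -0.29. Without replicate 2 of 5 h glucose, Pre3 (-0.87, adjusted p = 0.00717) and the non-ATPase subunit 9 (-0.77, adjusted p = 0.0331) passed as lower.

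Of the endopeptidases, 2 fell, both from low counts. The aspartyl protease e_gw1.25.197.1 had 1 read in each library from 5 h glucose and 16, 15 and 30 reads at 48 h glucose (adjusted p = 0.00207). Scaled by depth 48 h glucose was 11.0 times as high, with a counting interval of 2.93 to 93.3. This gene passed the filter on low counts only through 48 h glucose, so the filter favoured the call in the direction found. The other, e_gw1.1.1743.1, had no read at 5 h glucose and 4, 5 and 4 at 48 h glucose (adjusted p = 0.0376), too few for a bound on its fold. Its call was lost with DESeq2 (0.0511), without either library from 5 h glucose (0.138 and 0.129) and without replicates 2 or 3 of 48 h glucose (0.0697 and 0.0581). The calpain-like gene e_gw1.13.296.1 was 6.97 times as high at 48 h glucose, with 2 and 2 reads at 5 h glucose against 27, 28 and 22 at 48 h glucose (counting interval 2.62 to 26.2, adjusted p = 0.000464). No exopeptidase or processing peptidase fell with TMM. The direction turned with the library totals for 5 genes that passed under neither scaling, Sec11 (0.31 with TMM and -0.23 with the totals), the E2 gene e_gw1.10.312.1 (0.29 and -0.16), methionine aminopeptidase, the subtilisin-like gene e_gw1.13.309.1 (0.40 and -0.04) and dipeptidyl peptidase 5 (e_gw1.3.133.1), the last at 1 read or fewer in every library of either condition.

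As a share of the summed RPKM of a library (mean ± SD, n = 3 for straw and for 48 h glucose and n = 2 for 5 h glucose), all 41 genes together took 0.410% ± 0.0213 in straw cultures and 0.421% ± 0.00399 in 48 h glucose cultures, a difference within 1 SD of straw. In 5 h glucose cultures they took 0.295% ± 0.00430. The roles differed. The 7 other peptidases held 0.0559% ± 0.00244 on straw and 0.0132% ± 0.00109 at 48 h glucose, and the 8 exopeptidases 0.0676% ± 0.00956 on straw and 0.0294% ± 0.00241 at 48 h glucose. The 5 processing peptidases held 0.0621% ± 0.00235 on straw and 0.0964% ± 0.00752 at 48 h glucose. The ubiquitin genes held 0.0353% ± 0.000287 at 5 h glucose, against 0.0831% ± 0.00746 on straw. In each of these the ranges of the libraries did not overlap. As a share of the summed counts, all 41 genes took 0.407% ± 0.0139 on straw and 0.405% ± 0.00714 at 48 h glucose. At 5 h glucose they took 0.358% ± 0.00334 of the counts, a smaller difference than with RPKM.

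Genes of neighbouring pathways were taken from the same table by annotation. Of 14 genes of autophagy, vacuolar sorting and related vacuolar functions, 3 rose and 4 fell on straw relative to 48 h glucose, 2 rose and 4 fell at 5 h glucose relative to straw, and 2 rose and 4 fell at 5 h relative to 48 h glucose. In the same order, 30.6%, 28.5% and 25.7% of all genes tested rose and 28.2%, 30.0% and 23.2% fell. With the library totals, 8, 0 and 0 of them rose and 0, 13 and 7 fell in these 3 comparisons, where 59.5%, 6.14% and 11.7% of all genes rose and 10.4%, 67.3% and 33.5% fell. The vacuolar import and degradation gene e_gw1.25.92.1 (vid24) had 77.6, 74.8 and 82.7 on straw and 37.9, 45.4 and 30.0 at 48 h glucose (1.04 ± 0.21, adjusted p = 0.000249). The vacuolar sorting gene Pep3/Vps18 (e_gw1.17.19.1) had 48.5, 43.6 and 49.0 on straw and 81.8, 88.5 and 83.6 at 48 h glucose (-0.85 ± 0.19, adjusted p = 0.000821). The gene of Aut7, the ubiquitin-like protein of the autophagosome (e_gw1.21.206.1), was abundant in every library, with 385, 379 and 394 on straw and 368, 281 and 366 at 48 h glucose, and did not pass the test (0.19 ± 0.16, adjusted p = 0.310). Of 3 F-box or RING finger genes, types of protein found in ubiquitin ligases, 2 could be tested. The F-box gene e_gw1.28.185.1 fell at 5 h relative to 48 h glucose (-0.67 ± 0.22, adjusted p = 0.0155), which was the only call with TMM. With the library totals, 1 of the 2 fell at 5 h glucose relative to straw and 1 relative to 48 h glucose, where 67.3% and 33.5% of all genes fell. None rose there, and neither passed for straw over 48 h glucose.

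A further 12 peptidase and ubiquitin genes were listed by the study because of antisense reads in these same libraries, so they are not an independent list. Of the 8 that could be tested, 3 rose and 1 fell on straw relative to 48 h glucose, 1 rose and 4 fell at 5 h glucose relative to straw, and 2 rose and 3 fell at 5 h relative to 48 h glucose. With the library totals, 7 rose and 0 fell in the first of these comparisons, 0 and 7 in the second, and 2 and 4 in the third. The shares of all genes that rose and fell in these comparisons are those given for the list of autophagy genes. A second serine carboxypeptidase (e_gw1.8.603.1) had 18.5, 21.5 and 25.5 on straw and 3.21, 3.75 and 7.19 at 48 h glucose (2.24 ± 0.33, adjusted p = 1.2e-05). A subtilisin-like gene (fgenesh5_pg.C_scaffold_23000048) had 30, 34 and 29 reads on straw and 1, 2 and 0 at 48 h glucose (adjusted p = 1.3e-05). This gene also passed the filter only through straw. The putative thermolysin gene of family M4 (fgenesh5_pg.C_scaffold_6000036) had 9.20 and 8.55 at 5 h glucose, against 37.3, 39.7 and 40.5 on straw, a log2 fold change of -2.14 ± 0.29 (adjusted p = 5.96e-06). Its change for straw over 48 h glucose did not pass the test with TMM (-0.16 ± 0.17). With the library totals this direction turned, as all 8 genes tested had log2 fold changes of at least 0.29 there.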

How the data were processed

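RNA from 8 cultures was sequenced as 50 bp SOLiD reads. Mapping by the authors used BioScope and JGI assembly version 2.0. They removed rRNA reads and counted uniquely aligned sense reads per gene with HTSeq, and the deposited counts carry no normalization. For the deposited RPKM, the authors divided each count by transcript length and a library total, which calculated back from the values was 7838128 to 16471040 reads. The members and lists were chosen with earlier results of these data known.

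Counts of all genes were fitted with edgeR 4.0.16 (R 4.3.3; TMM, filterByExpr, quasi-likelihood test, 1 model of all 8 libraries, condition only) in place of the pooled test of the study, and adjusted over 7211 genes. Standard errors are the log2 fold change divided by the square root of F. Levels and sums used Python 3.11.15. The detection limit of 3 reads and the 95% exact binomial intervals cover counting error only. Replicates are separate cultures. Described in full were the proteasome genes, the 5 members with the largest change in each direction and comparison (mean of at least 20 reads, no overlap of libraries) and the 5 of highest level; other members with values were chosen after these were seen. Alternatives were DESeq2 1.42.0, library totals, no filter, 2 conditions only, a replicate block, straw libraries 1 and 3 summed, an adjusted p below 0.001 and each library left out. No sequences were used.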

Additional observations from a re-analysis of the deposited data

How the results depend on the processing

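The scaling of the libraries changed more than any other choice. With the library totals behind the RPKM, 20 of the genes were higher and 2 lower for straw over 48 h glucose (median log2 fold change 0.72), 0 higher and 27 lower for 5 h glucose over straw (median -1.47), and 3 higher for 5 h over 48 h glucose (median -0.59). This scaling turned 29 directions over the 3 comparisons, of which 9 concern genes called under neither scaling. The other 20 were, for straw over 48 h glucose, the subtilisin-like gene e_gw1.13.309.1 (0.40), the metallocarboxypeptidase (0.62), Pre3 (0.10), Pup2 (0.037), the non-ATPase subunit 9 (0.59), the E2 gene e_gw1.2.1017.1 (0.19), HRD3 (0.21), the cullin (0.72), methionine aminopeptidase (0.059) and the dipeptidyl aminopeptidase (0.77), and for 5 h glucose over straw Pre1 (-1.01), Pre3 (-1.01), Rpn6 (-0.13), the kelch repeat gene (-1.24), e_gw1.13.309.1 (-0.44), the ligase gene e_gw1.16.93.1 (-0.81), the metallocarboxypeptidase (-0.25), Sec11 (-1.08), methionine aminopeptidase (-0.56) and the dipeptidyl aminopeptidase (-1.27). The cause was not tested beyond the shift of all genes. At an adjusted p below 0.001, 8 genes were lower for straw over 48 h glucose, 4 higher for 5 h glucose over straw, and 2 higher and 5 lower for 5 h over 48 h glucose. The median for 5 h glucose over straw was -0.36 with straw libraries 1 and 3 summed, and that for 5 h over 48 h glucose was -0.045 with DESeq2, and the cause was not tested.

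Leaving out each library in turn gave 10 higher and 10 to 13 lower (median -0.19 to -0.03) for straw over 48 h glucose, 6 to 9 higher and 11 to 14 lower (-0.38 to -0.19) for 5 h glucose over straw, and 4 to 8 higher and 10 to 12 lower (-0.29 to -0.11) for 5 h over 48 h glucose. For 5 h glucose over straw, leucine aminopeptidase 1 (-0.64, adjusted p = 0.0335) and SUB3 (-1.19, adjusted p = 0.0403) passed as lower without replicate 2 of 5 h glucose, and the E2 gene e_gw1.2.588.1 without replicate 1 (-0.95, adjusted p = 0.0492). Where 5 h glucose was left with 1 library, that library was assumed to vary like the other conditions. Same-numbered libraries did not deviate together (correlations of -0.03 to 0.15, above 0.1 in 1 of 7 pairs), so the replicate numbers were not taken as pairs. With the replicate number as a block, 10 genes were higher and 13 lower for straw over 48 h glucose (median -0.09), 7 higher and 12 lower for 5 h glucose over straw (-0.26), and 8 higher and 11 lower for 5 h over 48 h glucose (-0.17). Depth limits the 5 h glucose values most, where 10 genes did not exceed 3 reads in either library.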
